A study of Mus musculus with 12 samples.

Results

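The tumour necrosis factor (TNF) superfamily was described in mouse dorsal root ganglia (DRG), where the somata of sensory neurons lie beside glia and resident immune cells. Its genes were taken by symbol: Tnf itself and every gene named Tnfsf, Tnfrsf or Traf with a number, which gave 39 of the 44345 genes listed. Of these, 12 encode ligands, 20 encode receptors and 7 encode TNF receptor-associated factors (TRAFs). All mice were C57BL/6, aged 6 to 8 weeks, and L4 to L6 DRG were collected. The vehicle group (PBS) had phosphate-buffered saline by gavage each day for 10 days. The IPA group had 20 mg/kg of indole-3-propionic acid, a tryptophan product of gut bacteria, in the same way. The groups vehicle with crush (PBS-SNC) and IPA with crush (IPA-SNC) had the same 10 days of gavage, then a sciatic nerve crush, and their DRG were taken 3 days later. IPA was given for those 3 days as well, so IPA-SNC mice had more days of gavage than IPA mice, and the labels leave unclear whether vehicle was continued. Each group had 3 libraries and each library pooled the DRG of 2 mice. The labels list no sham-operated group. Crush therefore cannot be told apart from the operation or from the later collection. The comparisons ask what differed after nerve crush in each treatment, and what differed with IPA, with and without crush.

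Ligands of the family are mostly trimers, on the cell surface or released, that bring receptor chains together. Receptors without a death domain, such as TNFR2, CD30 and Fn14, pass the signal on through TRAFs, adaptors that lead to NF-kappaB and MAP kinases. Receptors with a death domain, such as TNFR1, DR3, DR5 and DR6, can also lead to cell death. In peripheral nerve, TNF signalling is known for its part in Wallerian degeneration and in pain after injury.

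The deposited values are scaled like CPM, reads relative to a library-wide total with no division by gene length, and are called CPM-like here. The reads behind them could be recovered and came to 40938034 to 62501969 per library, so that 1 read was worth 0.0130 to 0.0199 CPM-like units. The 11 sensory neuron markers were present in every library and summed to 11220 to 13220. PBS-SNC replicate 1 stood apart from its replicates, with a score of 23.56 against -5.04 and -1.29 on the second principal component. IPA-SNC replicates 1 and 3 lay at 12.67 and -16.29 on the next. Intact vehicle libraries also spread on the second component, at 9.08, 12.46 and -1.28, while intact IPA libraries lay from -11.85 to -5.49. No library was removed from the main fit, and results that turn on a single library are given without it.

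The 4 genes with the largest rises after crush were Tnfrsf8, Tnfrsf12a, Tnfrsf1b and Traf4, all on the minus strand (GENCODE M21, GRCm38). Tnfrsf8 (CD30; ENSMUSG00000028602) lies at chr4:145267137-145315164 and Tnfrsf1b (TNFR2; ENSMUSG00000028599) at chr4:145213463-145246870, with 20.3 kb between them. Tnfrsf12a (Fn14, the TWEAK receptor; ENSMUSG00000023905) lies at chr17:23675445-23677468. Traf4 (ENSMUSG00000017386) lies at chr11:78158499-78165589. Their RefSeq promoters (GRCm38.p6, minus strand, from 250 bases before to 50 bases after the start of transcription) are shown because their genes moved most. They span chr4:145315115-145315414, chr17:23677400-23677699, chr4:145246821-145247120 and chr11:78165501-78165800, in the order printed. Capitals mark a match to the AP-1 motif TGANTCA, which was searched on both strands.
Tnfrsf8: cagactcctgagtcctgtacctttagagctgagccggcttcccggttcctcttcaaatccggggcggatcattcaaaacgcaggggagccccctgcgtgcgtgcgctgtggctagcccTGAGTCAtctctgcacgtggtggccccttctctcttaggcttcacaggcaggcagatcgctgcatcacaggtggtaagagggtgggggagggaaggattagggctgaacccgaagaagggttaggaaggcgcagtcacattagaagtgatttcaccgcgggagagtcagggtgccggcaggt
Tnfrsf12a: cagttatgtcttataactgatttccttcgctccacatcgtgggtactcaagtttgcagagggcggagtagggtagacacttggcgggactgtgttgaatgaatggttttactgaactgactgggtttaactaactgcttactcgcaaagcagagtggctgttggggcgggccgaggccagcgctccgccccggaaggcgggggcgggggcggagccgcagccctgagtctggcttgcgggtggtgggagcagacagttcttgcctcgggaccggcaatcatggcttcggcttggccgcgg
Tnfrsf1b: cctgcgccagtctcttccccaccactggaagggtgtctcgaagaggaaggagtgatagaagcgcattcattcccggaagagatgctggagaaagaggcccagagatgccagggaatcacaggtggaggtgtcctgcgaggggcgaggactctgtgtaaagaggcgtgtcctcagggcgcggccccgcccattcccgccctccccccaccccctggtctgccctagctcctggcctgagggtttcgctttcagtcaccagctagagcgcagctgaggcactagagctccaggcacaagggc
Traf4: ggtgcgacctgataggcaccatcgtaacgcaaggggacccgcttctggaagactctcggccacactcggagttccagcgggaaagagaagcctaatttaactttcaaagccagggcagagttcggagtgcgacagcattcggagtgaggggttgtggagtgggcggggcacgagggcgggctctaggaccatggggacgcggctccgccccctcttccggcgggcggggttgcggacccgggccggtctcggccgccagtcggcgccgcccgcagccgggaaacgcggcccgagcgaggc

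The match in the Tnfrsf8 promoter began at -132 from the start, and the other 3 sequences held none. Over all 32851 RefSeq promoters of this length, 7.81% held the AP-1 letters. Among 36 promoters of 32 family genes, 6 did, those of Tnfrsf8, Tnfrsf9, Tnfsf13, Tnfsf13b and Tnfsf14. The Tnfsf13b promoters, chr8:10006217-10006516 and chr8:10006383-10006682, overlap and hold the same match, which is counted for each. Of these genes, Tnfrsf8 was higher after crush in both treatments, and Tnfsf13b was called lower under vehicle but not under IPA. Tnfsf13 was not called, and Tnfrsf9 and Tnfsf14 were too low to test. A kappaB motif, GGG and TTCC on either side of 3 free bases, was searched on both strands. It was in 5.56% of all promoters and in 6 of the 36, and in none of the 4 printed sequences. These matches describe letters, not bound sites.

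Levels can be set beside each other between genes after division by exon length, and on that scale receptors led the family in intact vehicle DRG. Among the 39 genes, Tnfrsf21 (DR6, a death-domain receptor that neurons express) led with 59.3 CPM-like units per kb of exon, with libraries between 55.5 and 64.5. Tnfrsf1a (TNFR1, the main death-domain receptor for TNF) came next at 10.8, from 10.2 to 11.6. Their ranges were far apart, and both stood above every other member in each intact vehicle library. Traf3, an adaptor that restrains noncanonical NF-kappaB signalling, followed at 7.66, and Traf7 at 4.38. Tnfsf12 (TWEAK), the ligand of Fn14, was the highest ligand at 3.93, and its range of 3.64 to 4.24 overlapped that of Traf7, 4.10 to 4.77. Tnfrsf11a (RANK) stood at 3.23 and Tnfrsf12a at 2.79, and their ranges of 3.06 to 3.39 and 2.26 to 3.19 overlapped as well. After crush under vehicle, Tnfrsf12a stood at 12.5 per kb, next below the 15.5 of Tnfrsf1a, and Tnfrsf8 went from 0.0365 to 1.43. The Tnf ligand was at the other end, with 0.0174 per kb in intact vehicle DRG, place 36 of 39. Receptors of the superfamily with other symbols are outside the 39. Of these, Ngfr stood above Tnfrsf21 in intact vehicle DRG, at 247 per kb, and Relt and Ltbr stood at 6.41 and 6.25.

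**Figure D1:**
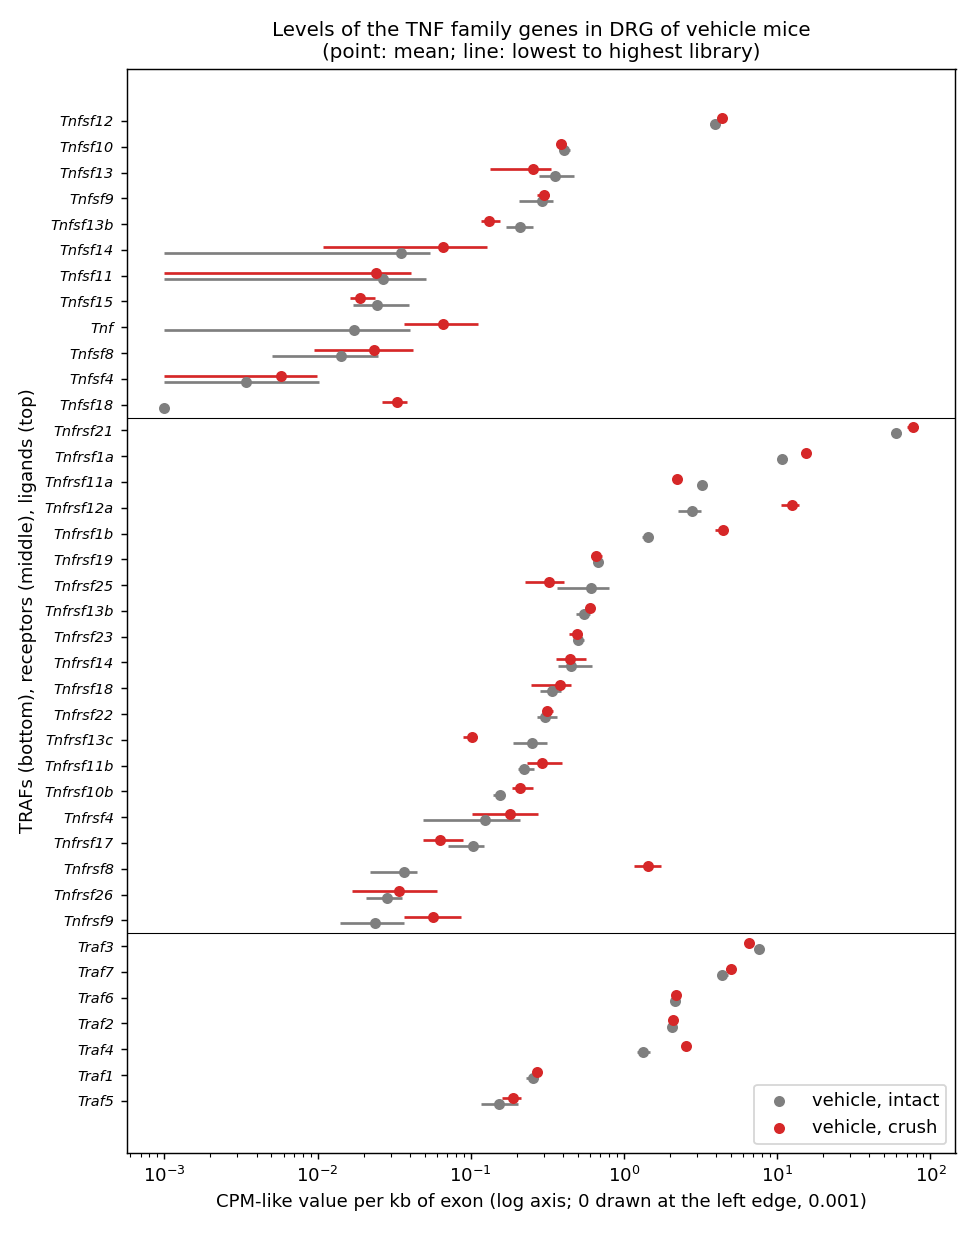
Levels of all 39 family genes in DRG of vehicle mice, intact (grey) and 3 days after crush (red), in CPM-like units per kb of exon on a log axis; points are means of 3 libraries and lines run from the lowest to the highest library. Tnfrsf21 leads at 59.3 and 77.2, and the largest shift between colours is that of Tnfrsf8, from 0.0365 to 1.43.

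The plot of levels shows the receptors Tnfrsf21 and Tnfrsf1a to the right of all ligands in both states. Of the 39 genes, 27 passed the filter of at least 0.5 CPM-like units in at least 3 of the 12 libraries, namely 4 of 12 ligands, 16 of 20 receptors and all 7 TRAFs. Tnfrsf8 passed only through crush libraries and Tnfrsf13c only through intact ones, so these 2 had to differ, and their p-values are given from the fit with no filter. The 12 that were not tested never exceeded 0.604 CPM-like units or 40 reads in a library. They were the ligands Tnf, Tnfsf4, Tnfsf8, Tnfsf9, Tnfsf11, Tnfsf14, Tnfsf15 and Tnfsf18 and the receptors Tnfrsf4, Tnfrsf9, Tnfrsf17 and Tnfrsf26, most of them known from lymphoid or bone cells.

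Under vehicle the mRNA of 13 of the 27 tested genes differed after crush, 8 higher and 5 lower, at an adjusted p under 0.05 in limma. Among all 15603 genes tested, 48.0% were called in that comparison (23.6% higher, 24.4% lower), so the family's share of 48.1% lay near the background. Under IPA, 12 of 27 differed after crush, 8 higher and 4 lower, beside a background of 43.6% (21.2% higher, 22.5% lower). Without Tnfrsf8 and Tnfrsf13c, 11 of 25 were called under vehicle (7 higher, 4 lower) and 10 of 25 under IPA (7 higher, 3 lower). That is 44% and 40%, beside 47.2% and 42.9% of the 15266 genes that reached the minimum in both intact and crush libraries. The 5 lower genes under vehicle became 3 without PBS replicate 2, without PBS replicate 3, or with no filter. The median log2 fold change over the tested members was 0.08 under vehicle and 0.04 under IPA, beside -0.00 and -0.02 over all genes. At an unadjusted p under 0.05 the members numbered 13 and 16, beside 54.4% and 50.8% of all genes. On recovered reads edgeR called 13 and 12 members (48.0% and 44.5% of all genes), and DESeq2 called 12 and 12 (48.4% and 45.1%). These fits keep Tnfrsf8 and Tnfrsf13c. Of the 16 tested receptors, 6 rose and 3 fell in each treatment, counting Tnfrsf8 and Tnfrsf13c, which had to differ. In both treatments 7 genes were higher and 4 lower, again counting these 2. Calls under vehicle only numbered 2 (Traf7 and Tnfsf13b) and under IPA only 1 (Tnfsf12). Over all genes 19.1% were higher in both, 19.4% lower in both, 9.48% called under vehicle only and 5.15% under IPA only. None of the 27 differed between the crush effects of the treatments, by the interaction term given further on. DRG are bulk tissue, so more cells of a type and more RNA per cell cannot be told apart in any of these values.

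**Figure D2:**
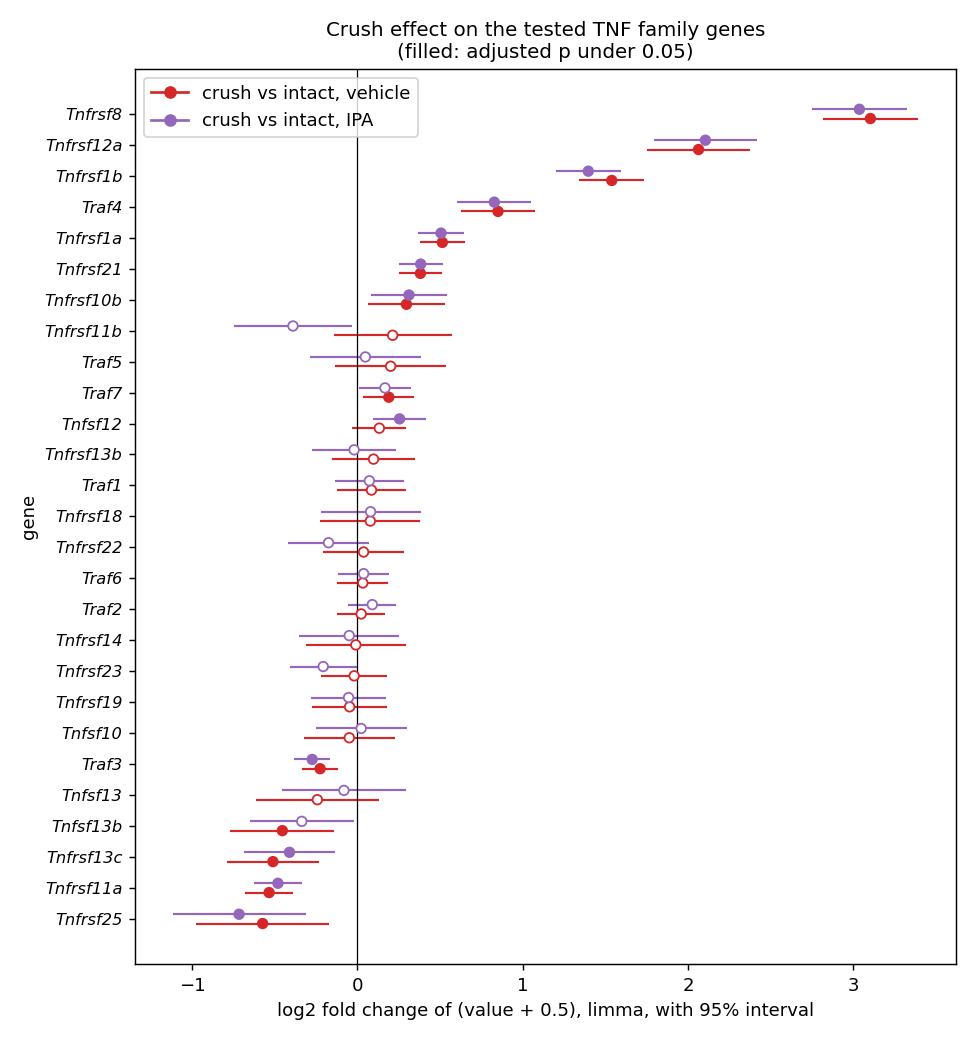
Log2 fold change of (value + 0.5) after crush for the 27 tested genes, under vehicle (red) and IPA (purple), with 95% intervals from limma; filled points had an adjusted p under 0.05. Tnfrsf8, Tnfrsf12a, Tnfrsf1b and Traf4 lead with 3.10, 2.06, 1.54 and 0.85 under vehicle, and the colours lie farthest apart for Tnfrsf11b (0.21 and -0.39, neither called).

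The plot of crush effects shows these 4 well to the right of the rest, while the calls on the other side of 0 reach -0.57 under vehicle and -0.72 under IPA, both of Tnfrsf25. Fold changes are on the log2(value + 0.5) scale, which understates changes of low genes.

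Among receptors, Tnfrsf8 had the largest rise. CD30 is an activation marker of lymphocytes that signals through TRAFs. Its values were 0.154, 0.0759 and 0.149 CPM-like units in intact vehicle libraries (8, 4 and 9 reads) and 4.06, 4.74 and 6.01 after crush (204, 261 and 431 reads). Under IPA they were 0.0788, 0.151 and 0.171, and 5.37, 4.59 and 4.18 after crush. Every crush library was far above every intact one. The ratio of group means was 39.1 under vehicle and 35.3 under IPA. In log2 units the change was 3.10 ± 0.13 (SE) and 3.04 ± 0.13. Because crush libraries alone carried the gene past the filter, its p comes from the fit of 29233 genes with no filter (limma adjusted p = 4.71e-08 and 6.28e-08). The edgeR fit on recovered reads, which adds no pseudocount of 0.5, gave 5.27 and 5.13. The transcript of its ligand CD30L, Tnfsf8, stayed untested at 0.0546 ± 0.038 in intact vehicle DRG and 0.0884 ± 0.063 after crush (SD, n = 3).

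Tnfrsf12a, an injury-responsive receptor that TWEAK binds, rose next most. It measured 5.65, 4.36 and 6.16 in intact vehicle libraries and 20.4, 24.9 and 26.9 after crush. With IPA the values were 5.83, 5.62 and 4.63, and then 28.7, 25.5 and 20.4. The groups did not overlap, and the group means differed 4.47-fold under vehicle and 4.64-fold under IPA. Its log2 fold change was 2.06 ± 0.14 (limma adjusted p = 5.84e-08) and 2.11 ± 0.14 (5.40e-08). TWEAK itself, Tnfsf12, moved far less, as given under the ligands.

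Tnfrsf1b (TNFR2), which binds membrane-bound TNF and is found on immune and glial cells, was also higher after crush. Intact vehicle libraries held 5.84, 5.01 and 5.48 and crush libraries 14.9, 17.5 and 18. Intact IPA libraries held 6.18, 6.04 and 5.88, and their crush counterparts 17.2, 14.8 and 18.2. No crush library came near an intact one, and means differed 3.09-fold and 2.78-fold. In log2 units these were 1.54 ± 0.09 (limma adjusted p = 1.20e-08) and 1.40 ± 0.09 (3.63e-08). The neighbours of Tnfrsf1b, Tnfrsf8, Tnfrsf12a and Traf4 were looked up after these values were seen. The next tested gene on the Tnfrsf1b side, Vps13d, had -0.20 under vehicle (limma adjusted p = 0.102) and -0.27 under IPA (0.0322). Beyond Tnfrsf8 came Znf41-ps, which starts at chr4:145825237, with 0.29 and 0.10 (0.0797 and 0.572). Beside Tnfrsf12a, Hcfc1r1 had -0.10 and -0.11 (limma adjusted p = 0.123 and 0.103), and Cldn9 -0.74 and -0.79 (9.61e-05 and 6.12e-05). Beside Traf4, Fam222b had 0.03 and 0.02 (limma adjusted p = 0.71 and 0.84), and Nek8 -0.09 and -0.18 (0.531 and 0.214).

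TNFR1 and DR6, the most abundant of the 39 genes per kb of exon in intact vehicle DRG, rose by smaller steps. Tnfrsf1a went from 27.8, 26.3 and 30.0 in intact vehicle libraries to 36.8, 42.0 and 41.9 after crush, and from 28.6, 30.5 and 29.4 to 43.0, 41.5 and 41.7 under IPA. Its log2 fold change was 0.51 ± 0.06 in each treatment (limma adjusted p = 1.54e-05 and 2.12e-05). Tnfrsf21 went from 238, 228 and 265 to 291, 321 and 340 under vehicle, and from 255, 249 and 256 to 339, 331 and 320 under IPA. All crush libraries of both genes lay above all intact ones. For Tnfrsf21 the log2 fold change was 0.38 ± 0.06 in each (limma adjusted p = 0.000176 and 0.000192). Tnfrsf10b, the mouse death receptor for TRAIL (DR5), held 0.867, 0.891 and 0.761 in intact vehicle libraries and 1.01, 1.38 and 1.06 after crush. With IPA it held 0.930, 0.951 and 0.826, then 1.36, 1.26 and 1.11. Its groups did not overlap and its log2 fold change was 0.30 ± 0.11 under vehicle (limma adjusted p = 0.0365) and 0.31 ± 0.11 under IPA (0.0314). That call was lost without PBS replicate 1, 2 or 3 (limma adjusted p = 0.0534 to 0.104) or IPA replicate 1, 2 or 3 (0.0514 to 0.108), and also without PBS-SNC replicate 2 (0.20, limma adjusted p = 0.171), IPA-SNC replicate 1 (0.26, 0.111) or IPA-SNC replicate 2 (0.30, 0.0816).

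**Figure D3:**
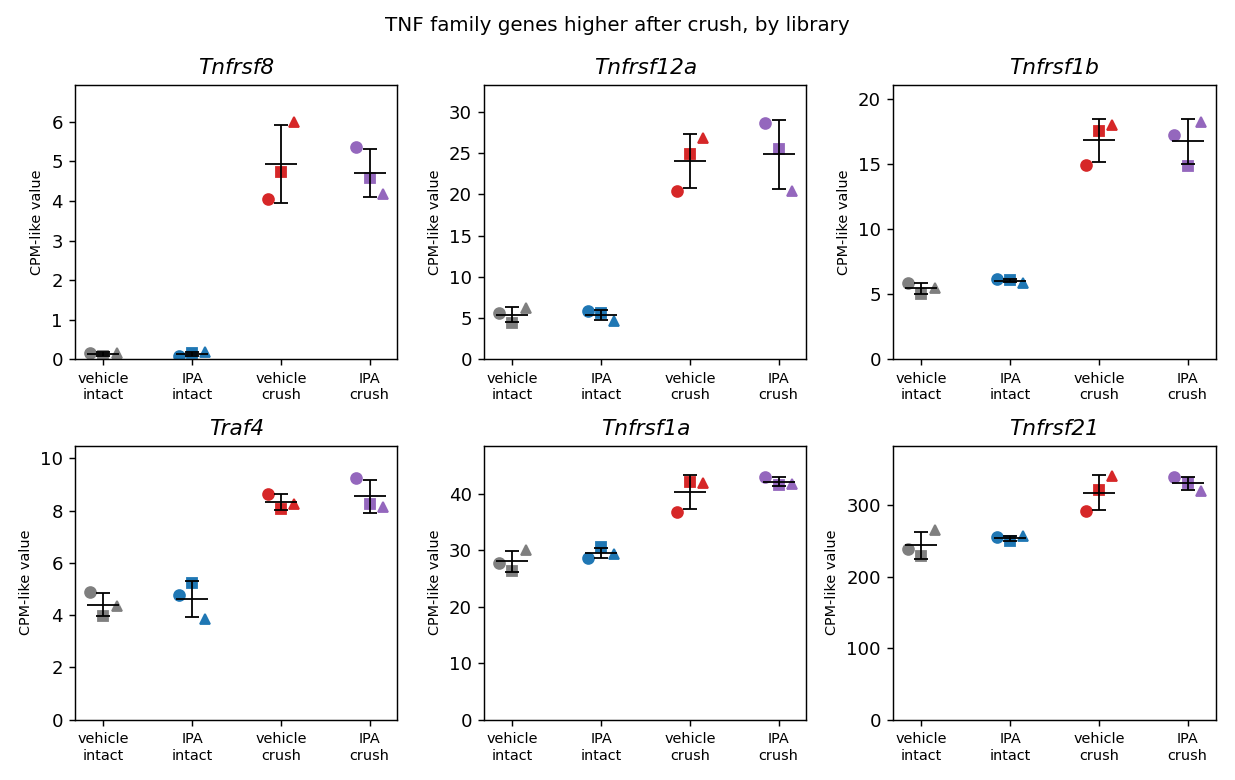
CPM-like values of 6 family genes in each of the 12 libraries, with circles, squares and triangles for replicates 1, 2 and 3 and a black bar and whiskers for mean and SD; each vertical axis starts at 0. In all panels the crush libraries lie above the intact libraries of the same treatment, from Tnfrsf8 (0.154 at most against 4.06 at least under vehicle) to Tnfrsf21 (265 against 291).

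The plot of genes higher after crush shows vehicle and IPA libraries at like heights within each state. Of the receptors that fell, Tnfrsf11a (RANK, the receptor that drives osteoclast formation) was the most abundant. It held 18.3, 19.4 and 20.3 in intact vehicle libraries and 12.7, 12.8 and 14.1 after crush. With IPA it held 19.7, 19.4 and 20.1, then 14.9, 14.1 and 13.0. Each crush library was below each intact one, and the log2 fold change was -0.53 ± 0.07 (limma adjusted p = 1.87e-05) and -0.48 ± 0.07 (5.77e-05). Its ligand RANKL, Tnfsf11, had 0 to 6 reads in any library.

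Tnfrsf25 (DR3, the death-domain receptor for TL1A) was low and scattered. It measured 1.81, 1.5 and 0.827 in intact vehicle libraries and 0.517, 0.926 and 0.781 after crush, and these overlapped because PBS replicate 3 was as low as the crush libraries. Under IPA it measured 2.06, 2.37 and 1.78, then 1.28, 0.935 and 0.982, with no overlap. The log2 fold change was -0.57 ± 0.19 (limma adjusted p = 0.0213) under vehicle and -0.72 ± 0.19 (0.00679) under IPA. The vehicle call was lost without PBS replicate 1 (-0.41, limma adjusted p = 0.109), PBS replicate 2 (-0.51, 0.0752) or PBS-SNC replicate 1 (-0.44, 0.0724). Tnfrsf13c (the BAFF receptor of B cells) held 0.385, 0.645 and 0.513 in intact vehicle libraries and 0.219, 0.182 and 0.223 after crush. Its IPA values were 0.425, 0.589 and 0.356, then 0.156, 0.298 and 0.200. The groups did not overlap in either treatment, at levels of few reads. In log2 units it differed by -0.51 ± 0.13 and -0.41 ± 0.13, with p from the fit with no filter since intact libraries alone carried it past the filter (limma adjusted p = 0.00517 and 0.0197), and edgeR on recovered reads gave -1.29 and -1.04. Without IPA-SNC replicate 1 the call under IPA was lost (-0.35, limma adjusted p = 0.0775), and without PBS replicate 2 or 3 or IPA replicate 2 the gene no longer passed the filter.

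The other 7 tested receptors were not called in either crush comparison. They are Tnfrsf13b (TACI), Tnfrsf14 (HVEM), Tnfrsf18 (GITR), Tnfrsf19 (TROY), the mouse TRAIL decoy receptors Tnfrsf22 and Tnfrsf23, and Tnfrsf11b (osteoprotegerin, a soluble decoy for RANKL). Tnfrsf22 held 1.14, 1.55 and 1.19 in intact vehicle libraries and 1.45, 1.31 and 1.24 after crush, with overlap, and a log2 fold change of 0.04 (limma adjusted p = 0.812). Tnfrsf23 held 1.89, 2.18 and 1.89, then 1.99, 2.12 and 1.74, also overlapping, with -0.02 (0.879). Under IPA Tnfrsf23 had -0.21 (limma adjusted p = 0.0895) and Tnfrsf22 -0.18 (0.234). Both genes overlap E230032D23Rik on the opposite strand. Tnfrsf11b, whose values stand with the IPA comparisons, had 0.21 (limma adjusted p = 0.313) under vehicle and -0.39 (0.0730) under IPA.

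Of the 12 ligands 4 were tested. Tnfsf12 held 5.51, 5.92 and 6.42 in intact vehicle libraries and 6.50, 6.68 and 6.49 after crush. Under IPA it held 6.07, 6.72 and 6.05, then 7.76, 7.30 and 7.69. Crush libraries lay above intact ones in both treatments, by a wider gap with IPA. Its log2 fold change was 0.13 ± 0.08 under vehicle (limma adjusted p = 0.166), which was not called, and 0.25 ± 0.08 under IPA (0.0142), which was. Without IPA replicate 1 or 3 the call under IPA was lost (limma adjusted p = 0.0558 and 0.0562). Tnfsf12 lies at chr11:69686250-69695849, 0.465 kb from Tnfsf13 (APRIL), and both overlap the readthrough gene Tnfsfm13 on their own strand and Tnfsf13os on the other. How the authors counted such reads is not given in the sources used here, so the values of both are uncertain.

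Tnfsf13b (BAFF, the survival factor of B cells) was the only tested ligand called lower, under vehicle. It held 1.39, 1.16 and 1.74 in intact vehicle libraries and 0.835, 1.07 and 0.795 after crush. With IPA it held 1.64, 1.51 and 1.24, then 1.19, 0.779 and 1.22. The groups did not overlap in either treatment, though under IPA only narrowly, at 1.24 against 1.22. This gave -0.45 ± 0.15 under vehicle (limma adjusted p = 0.0198) and -0.34 ± 0.15 under IPA (0.0777). The vehicle call was lost without PBS replicate 3 (-0.34, limma adjusted p = 0.0858) or PBS-SNC replicate 3 (-0.40, 0.0714). Tnfsf10 (TRAIL) held 2.33, 2.07 and 2.02 in intact vehicle libraries and 2.01, 2.21 and 1.93 after crush, and 1.97, 2.34 and 1.82, then 1.64, 2.07 and 2.60, with IPA. These overlapped throughout, and its log2 fold changes of -0.05 and 0.02 were not called (limma adjusted p = 0.776 and 0.905). Tnfsf13 had -0.24 and -0.08 and was not called (0.268 and 0.733).

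Tnf had few reads in each group. The intact vehicle libraries held 1, 0 and 4 Tnf reads and the crush libraries 3, 10 and 6. Under IPA the reads were 5, 6 and 4, then 15, 6 and 9. The groups sum to 5, 19, 15 and 30 reads in that order, with overlap in both treatments, and the gene was not tested. Tnfsf11 had 0, 6 and 4 reads in intact vehicle libraries, 0, 5 and 5 after crush, 2, 4 and 2 with IPA, and 1, 0 and 4 with IPA and crush. The values of Tnfsf11 overlapped in both treatments, and it was not tested either.

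Of the TRAFs, Traf4 rose in both treatments. Traf4 is an adaptor with roles in morphogenesis and cell polarity. It held 4.88, 3.98 and 4.35 in intact vehicle libraries and 8.65, 8.06 and 8.25 after crush. With IPA it held 4.77, 5.22 and 3.86, then 9.26, 8.25 and 8.13. No value of an intact library reached those after crush, and the group means differed 1.89-fold and 1.85-fold. The log2 fold change was 0.85 ± 0.10 (limma adjusted p = 1.42e-05) and 0.83 ± 0.10 (2.15e-05). Traf3 was the only TRAF that fell. It held 58.9, 56.6 and 53.4, then 49.9, 47.5 and 46.7 after crush under vehicle, and 57.2, 56.0 and 53.9, then 47.8, 45.4 and 44.7 under IPA. Its groups did not overlap, with log2 fold changes of -0.23 ± 0.05 (limma adjusted p = 0.00232) and -0.27 ± 0.05 (0.000631).

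Traf7 had a log2 fold change of 0.19 ± 0.07 under vehicle (limma adjusted p = 0.0433) and 0.17 ± 0.07 under IPA (0.0769). The vehicle call was lost without PBS replicate 1 or 3, PBS-SNC replicate 2 or 3, IPA replicate 1, or IPA-SNC replicate 1 or 2 (limma adjusted p = 0.0528 to 0.145). Traf7 overlaps Rab26 on its own strand and Caskin1 on the other, so its value is uncertain. The remaining TRAFs were not called in either crush comparison. Traf2, the adaptor that TNFR1 and TNFR2 complexes recruit, held 10.8, 10.1 and 10.8 in intact vehicle libraries and 11, 10.7 and 10.5 after crush. Under IPA Traf2 held 10.5, 10.9 and 9.71, then 11.3, 10.4 and 11.5. The values overlapped, with log2 fold changes of 0.02 and 0.09 (limma adjusted p = 0.805 and 0.306). Traf1, an NF-kappaB target that pairs with Traf2, held 2.04, 2.41 and 2.23, then 2.31, 2.51 and 2.36 under vehicle, and 2.24, 2.82 and 2.26, then 2.59, 2.51 and 2.64 under IPA. Traf5 held 0.636, 0.531 and 0.927, then 0.736, 0.890 and 0.977, and with IPA 0.961, 0.921 and 0.541, then 0.756, 0.751 and 1.02. Both overlapped between states, with 0.08 and 0.07 for Traf1 (limma adjusted p = 0.494 and 0.579) and 0.20 and 0.05 for Traf5 (0.310 and 0.831). Traf6, which also serves interleukin-1 and Toll-like receptors, held 17.2, 17.7 and 15.9, then 18.4, 17.0 and 16.6 under vehicle. With IPA it held 15.3, 15.7 and 15.7, then 14.8, 15.6 and 17.6. These overlapped too, with 0.03 and 0.04 (limma adjusted p = 0.740 and 0.707).

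Markers of cell types were counted in the same crush comparisons. Over all genes 23.6% were called higher and 24.4% lower under vehicle, and 21.2% and 22.5% under IPA. Macrophage markers rose in 12 of 12 genes under vehicle and 11 of 12 under IPA, and their summed level was 49.1 to 63.1 in PBS, 48.1 to 72.1 in IPA, 176 to 194 in PBS-SNC and 173 to 200 in IPA-SNC libraries. Neutrophil markers rose in 1 of 10 (Ly6g, which crush libraries alone carried past the filter) and 4 of 10, with sums of 18.5 to 63.6, 22.3 to 43.1, 49.0 to 89.2 and 39.7 to 161. Of 10 lymphocyte markers 4 were tested and 1, the B-cell gene Cd79a, fell in both treatments (-0.55 and -0.59). The other 3 were not called: Cd79b, also of B cells, had 0.01 and -0.13, Cd4 0.09 and -0.13, and Il2rb 0.35 and 0.27. The lymphocyte list had sums of 2.97 to 5.06, 3.64 to 5.48, 3.04 to 3.5 and 2.93 to 3.55. Sensory neuron markers fell in 8 of 11 under vehicle and 7 of 11 under IPA, and 1 rose in each. Fibroblast markers rose in 3 of 6 and 2 of 6, with sums of 699.8 to 839, 715 to 912, 862 to 964 and 814 to 908. Endothelial markers rose in 2 of 6 and 1 of 6, and satellite glia markers rose in 1 of 6 in each and fell in 1 of 6 and 2 of 6. Of 3 tested bone and cartilage markers 1 fell under vehicle and 2 under IPA. No Schwann, skeletal muscle, erythroid or adipocyte marker was called, though skeletal muscle sums spread from 31.1 to 103 in intact and from 41.2 to 249.5 in crush libraries. No marker of these lists was at 0 in all libraries. The part of these cells in the changes of Tnfrsf1b, Tnfrsf8, Tnfrsf13c and the other members was not tested.

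Genes around the family moved in both directions. Of 14 family genes with other symbols 6 were tested, and under vehicle 1 rose, Ltbr (the lymphotoxin beta receptor, 0.32), while Relt (-0.52), Eda (ectodysplasin, -0.30) and Ngfr (the p75 neurotrophin receptor, -0.18) fell. Ngfr overlapped between these states, at 854, 775 and 924 intact and 707, 754 and 786 after crush, unlike Ltbr, Relt and Eda. Under IPA 2 rose and 2 fell. The share called was 66.7% in each treatment, beside 48.0% of all genes under vehicle and 43.6% under IPA. Of 30 tested genes of receptor-proximal signalling, 9 rose and 7 fell under vehicle (53.3%) and 6 rose and 4 fell under IPA (33.3%), beside 48.0% and 43.6% of all genes. Those with the smallest p that rose were Tnip2, a binding partner of the NF-kappaB inhibitor A20 (1.04), Trafd1 (0.44), Traf3ip2 (an adaptor of interleukin-17 receptors, 0.47) and the necroptosis kinase Ripk3 (0.84). Ripk3 passed the filter only through crush libraries, and with no filter its adjusted p in limma was 0.00192 under vehicle and 0.00216 under IPA. Those that fell were Cflar (an inhibitor of caspase-8, -0.40), the deubiquitinase Cyld (-0.60), Tab3 (-0.68) and Map3k5 (-0.41), all log2 fold changes under vehicle. Of 17 NF-kappaB pathway genes, 7 rose and 1 fell in each treatment (47.1%), led by Bcl3 (1.21), Rela (the p65 subunit, 0.61), Bcl10 (0.50) and Nfkbiz (1.08), with Ikbkg (-0.17) lower under vehicle. The medians of these 3 lists under vehicle were 0.05, 0.12 and 0.13, beside -0.00 over all genes.

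IPA changed no family gene past the threshold. Of the 27 tested genes 0 were called without injury and 0 after crush, by limma, edgeR and DESeq2. Over all 15603 genes 0.0% were called by limma and by edgeR in each comparison, and DESeq2 called 0.0192% and 0.0961%. At an unadjusted p under 0.05 limma gave 1 member without injury and 2 after crush, beside 12.2% and 8.06% of all genes. On the fitted scale, with its pseudocount, the 95% interval without injury lay within a 1.5-fold change for 26 of 27, all but Tnfrsf25. After crush it did so for 25 of 27, all but Tnfrsf11b and Tnfrsf25. The pseudocount shrinks the changes of low genes, so these counts do not bound the change in their mRNA. No share over all genes is given beside them. Tnfrsf8, Tnfrsf12a and Tnfrsf1b had log2 differences of 0.02, -0.00 and 0.14 without injury and -0.05, 0.04 and -0.00 after crush. For Tnfrsf12a the 95% interval after crush ran from -0.27 to 0.35.

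**Figure D4:**
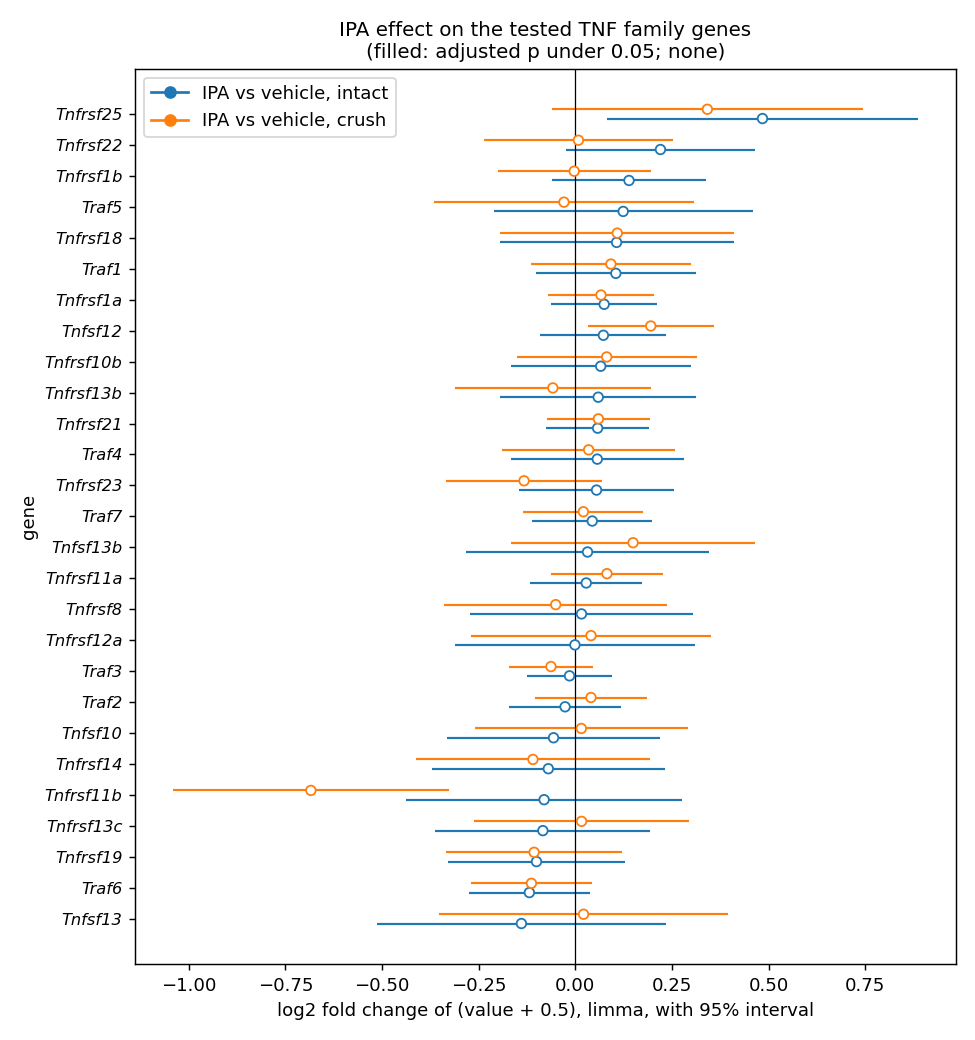
Log2 fold change of (value + 0.5) with IPA for the 27 tested genes, in intact (blue) and crush (orange) mice, with 95% intervals from limma; no point is filled because none had an adjusted p under 0.05. Tnfrsf11b after crush (-0.68) and Tnfrsf25 without injury (0.48) lie farthest from 0.

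The plot of IPA effects shows most intervals crossing 0. Tnfrsf11b had the smallest unadjusted p. Osteoprotegerin held 1.11, 0.654 and 0.684 in PBS-SNC libraries (56, 36 and 49 reads) and 0.352, 0.368 and 0.218 in IPA-SNC libraries (27, 26 and 12 reads). Intact vehicle libraries held 0.578, 0.569 and 0.728 and intact IPA libraries 0.788, 0.604 and 0.342. The IPA-SNC libraries lay below all PBS-SNC libraries, while the intact groups overlapped. After crush the log2 difference with IPA was -0.68 ± 0.17 (limma adjusted p = 0.578). On recovered reads edgeR gave -1.33 (adjusted p = 0.588) and DESeq2 -1.35 (adjusted p = 0.139). Without the PBS-SNC replicate that stood apart, replicate 1, the limma difference was -0.53 (limma adjusted p = 0.699).

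Tnfsf12 was higher in each IPA-SNC library than in any PBS-SNC library, with values given above, and its log2 difference was 0.20 ± 0.08 (limma adjusted p = 0.585). Tnfrsf25 differed by 0.48 ± 0.19 without injury (limma adjusted p = 0.408), where the groups overlapped between 1.78 and 1.81, and by 0.34 after crush (0.644), where they did not. Traf6 was lower in each intact IPA library than in each vehicle one, with -0.12 (limma adjusted p = 0.447), and differed by -0.11 after crush with overlap (0.684). Tnfrsf1b was higher in each intact IPA library than in each vehicle one, with 0.14 (limma adjusted p = 0.476). Tnfrsf22 held 1.76, 1.66 and 1.34 in intact IPA libraries, which overlapped the vehicle values, with 0.22 (limma adjusted p = 0.409). None of these differences was past the threshold.

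**Figure D5:**
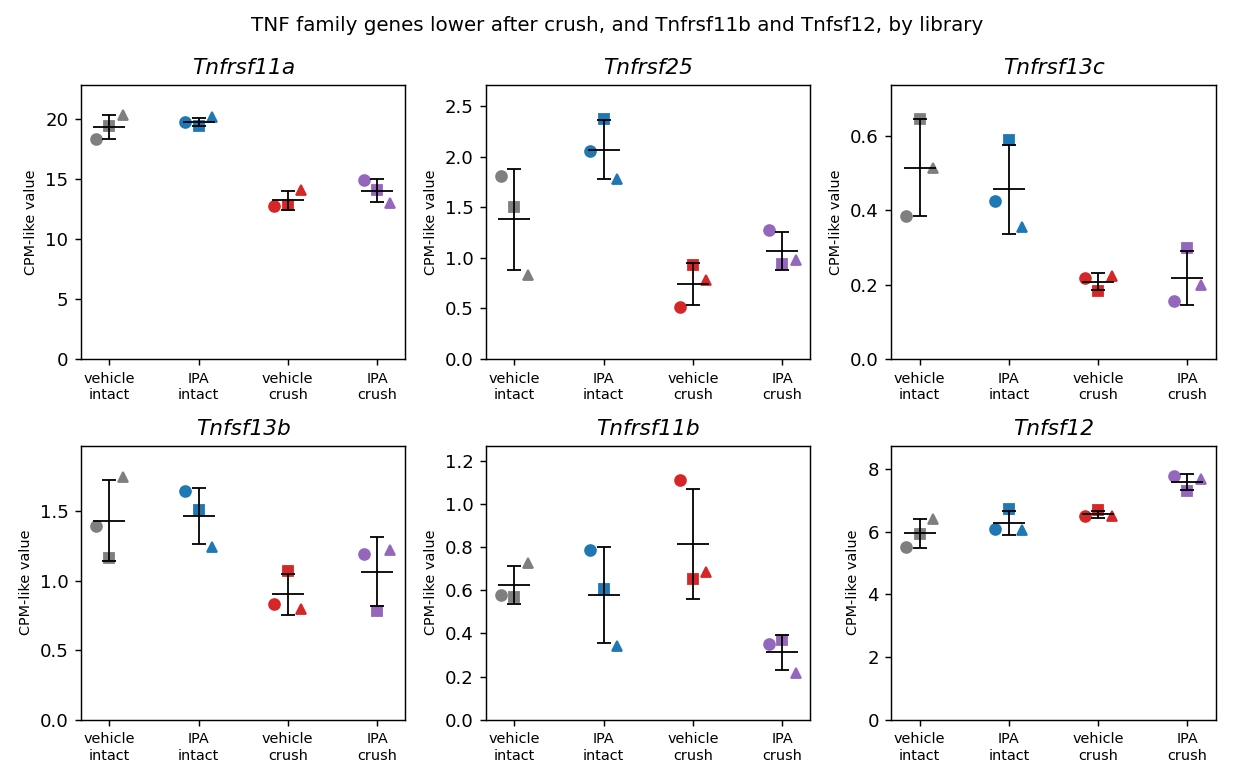
CPM-like values of 4 genes called lower after crush under vehicle (Tnfrsf11a, Tnfrsf25, Tnfrsf13c, Tnfsf13b), of Tnfrsf11b and of Tnfsf12 in each of the 12 libraries, with circles, squares and triangles for replicates 1, 2 and 3 and a black bar and whiskers for mean and SD; each vertical axis starts at 0. Tnfrsf11b is lowest in IPA with crush (0.218 to 0.368) and Tnfsf12 highest there (7.30 to 7.76), with neither difference past the threshold.

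The plot of lower genes shows the overlap of Tnfrsf25 under vehicle beside the clear gap of Tnfrsf11a. The interaction term compared the crush effect under IPA with that under vehicle, and 0 of 27 genes were called by limma, edgeR or DESeq2. Over all genes limma and edgeR called 0.0% and DESeq2 0.0192%. At an unadjusted p under 0.05 limma gave 1 member, Tnfrsf11b, beside 2.1% of all genes. Its interaction was -0.60 ± 0.24 (limma adjusted p = 1.0). Tnfrsf22, Tnfrsf23 and Tnfsf12 followed with -0.21, -0.19 and 0.12 (limma adjusted p = 1.0 for each). On the same fitted scale the 95% interval lay within 1.5-fold for 23 of 27 genes, all but Tnfrsf11b, Tnfrsf25, Tnfsf13 and Traf5. Because of the pseudocount, this count does not bound the difference for low genes.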

How the data were processed

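RNA of 12 libraries in 4 groups was measured by poly(A), directional, paired-end sequencing of 75 bases, per the labels' protocols. Without saying what each did, the submitters' processing notes list FastQC 0.10.1, STAR 2.7.0, R 3.5.0, limma 3.38.3, edgeR 3.24.3 and the build mm10. Which read counter and which annotation were used is not given in the sources used here. As deposited by the authors, the values form a table named as FPKM, but its values behave as CPM: in each library 100.0% were whole multiples of 1 step within a tolerance of 1e-06, no gene length was divided out, and columns summed to 803444 to 818767.

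Here log2(value + 0.5) was fitted by limma-trend (limma 3.58.1, R 4.3.3) on 15603 genes with at least 0.5 in at least 3 libraries, with 4 group means and 8 residual degrees of freedom. Adjusted p-values are Benjamini-Hochberg over all of them, with a threshold of 0.05. Alternatives were DESeq2 1.42.0 and the quasi-likelihood test of edgeR 4.0.16, both on recovered reads, pseudocounts, filters, scaling, the replicate block, separate fits per comparison, and leaving out each library. The limma script was tested on simulated counts with the same spread for all genes and no outlying library. That test does not bear on the calls given here.

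Values per library are given for members called with a log2 fold change of at least 0.5, for a chosen set of 16 members, and for the 4 with the smallest p in each IPA comparison and the interaction; other genes follow by the smallest p. Tnfrsf8, Tnfrsf12a, Tnfrsf1b and Traf4 promoters were chosen for size of change. Members and lists were chosen with earlier results of these data known. Per the labels, the replicates of a group come from different pools of mice, and no pair agreed within sampling noise. Exon lengths are unions of GENCODE M21 exons, and sequences are RefSeq's; all 12 libraries carry counting error beside the spread between pools.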

Additional observations from a re-analysis of the deposited data

How the results depend on the processing

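Over all alternatives no member reversed its direction where it was called. Tnfrsf8, Tnfrsf12a, Tnfrsf1b, Traf4, Tnfrsf1a, Tnfrsf21, Tnfrsf11a and Traf3 kept their calls in both crush comparisons under every alternative run. The count of members lower after crush under vehicle, 5, was 3 with no filter, where 29233 genes were tested, and 3 without PBS replicate 2 or PBS replicate 3. Leaving out each library in turn gave 9 to 13 calls under vehicle (6 to 8 higher, 3 to 5 lower), 10 to 14 under IPA (6 to 9 higher, 3 to 5 lower), and 0 to 0 in both IPA comparisons and the interaction. In the same fits 40.6% to 53.4% of all genes were called under vehicle and 36.4% to 49.0% under IPA. Keeping only genes at the minimum in both states, an alternative chosen after seeing the data, gave 11 and 10 members. With no filter Tnfrsf10b lost its call in both treatments (limma adjusted p = 0.0766 and 0.0695), as did Tnfrsf25 (0.0634), Tnfsf13b (0.0571) and Traf7 (0.0735) under vehicle. Fitting only the libraries compared ended the vehicle calls of Tnfrsf10b (limma adjusted p = 0.0869), Tnfrsf25 (0.0535) and Traf7 (0.0844). DESeq2 did not call Tnfrsf10b (adjusted p = 0.0851 and 0.0524). The cause of these lost calls was not tested. Tnfrsf11b and Tnfrsf13c gave no value under a filter of 1, nor did Tnfrsf13c without PBS replicate 2 or 3 or IPA replicate 2, and the interaction has no fit to only the libraries compared, since it needs all 12. The log2 fold change of Tnfrsf8 ranged from 2.39 to 5.29 under vehicle with the pseudocount and tool.

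No pairing by replicate number was seen: deviations of same-numbered libraries correlated from -0.252 to 0.286, over 0.1 in 4 of 18 pairs. Of the 18, 4 correlated best with their own number. With 3 libraries per group, this check cannot show that pairing was absent. With the number as a block, 13 members were called under vehicle and 12 under IPA, and 0 in the other comparisons.

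The 12 untested members, with at most 40 reads in a library, were left out by the filter, so no test bears on them.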

Other observations

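Some untested members differed in reads without a test. Tnfrsf4 (OX40, a T-cell costimulatory receptor) had 8, 15 and 4 reads in PBS libraries and 28, 40 and 25 in IPA libraries, with no overlap. After crush it had 7, 12 and 27 reads under vehicle and 29, 16 and 25 under IPA, with overlap. Tnfsf18 (the GITR ligand) had 0 reads in all 3 PBS libraries, 2, 0 and 0 in IPA libraries, 4, 3 and 5 in PBS-SNC libraries, and 1, 0 and 1 in IPA-SNC libraries. Tnfsf14 (LIGHT, a ligand of HVEM) summed to 11 reads in PBS, 10 in IPA, 22 in PBS-SNC and 43 in IPA-SNC libraries, with overlap under vehicle but not under IPA (1, 4 and 5 reads against 15, 11 and 17). These genes were singled out after their values were seen, and their reads are given as values.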
